A study of Arabidopsis thaliana with 163 samples.

Results

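The genes described are 8 Arabidopsis genes that encode enzymes of jasmonic acid (JA) synthesis downstream of the lipoxygenases. They are AOS (AT5G42650), AOC1 (AT3G25760), AOC2 (AT3G25770), AOC3 (AT3G25780), AOC4 (AT1G13280), OPR3 (AT2G06050), OPCL1 (AT1G20510) and ACX1 (AT4G16760). They were chosen by name for their place in the pathway, and they are 8 of the 27444 protein-coding genes on the nuclear chromosomes. For each gene, every deposited chromatin domain and every peak of the transcription factor MYC2 was taken that overlapped the gene body or the 2 kb upstream of its annotated start. In TAIR10 coordinates, AOC1, AOC2 and AOC3 follow each other on the plus strand of chromosome 3 (chr3:9403779-9405338, chr3:9406669-9408071 and chr3:9409160-9411090), and AOC4 lies on the plus strand of chromosome 1 (chr1:4547388-4548894). The other 4 are on minus strands, with AOS at chr5:17097564-17099595, OPR3 at chr2:2359114-2362375, OPCL1 at chr1:7103362-7106121 and ACX1 at chr4:9424534-9428895. The windows held 87 distinct domains and 15 MYC2 peaks.

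The series applied PHILO, a plate-based ChIP-seq protocol for small samples, to whole 10-day-old seedlings, and the groups used here come from 163 samples. JA treatment was 2 h of gaseous methyl jasmonate given to Col-0, the wild type, and it was set against control Col-0 seedlings in 2 experiments, named large-scale and time course, with 3 H3K9ac libraries per group. H3K9ac, an acetyl group on a lysine of the histone H3 tail, marks active genes. Untreated Col-0 seedlings were profiled for H3K9ac with 3 PHILO libraries and with 2 libraries made by regular ChIP-seq, and for H3K4me3, H3K36me3 and H3K27me3 with 3 PHILO libraries each, all against IgG, an antibody with no specific target. MYC2 was profiled in 2 libraries after 2 h JA and in 2 control libraries. The labels give Col-0 for these as well, whereas the methods name a myc2 mutant that carries MYC2:MYC2-FLAG, a tagged MYC2. Other label fields of these libraries name anti-H3K9ac as the antibody and give no treatment, while their titles name MYC2 and 2 h JA or control, and the titles were followed. The label of the untreated PHILO IgG library also names anti-H3K9ac, and its title, which names IgG, was followed. The libraries of each group were pooled before the JA and mark lists were called, so these lists have no replicate error. By the methods, JA-induced MYC2 binding was called from 2 h JA against control libraries, so the MYC2 folds below are read as 2 h JA over control, although the list itself does not name its control.

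JA is made from linolenic acid. In the plastid, lipoxygenases oxidise the fatty acid, AOS (allene oxide synthase) turns the product into an unstable allene oxide, and the allene oxide cyclases (AOC) close its ring to give OPDA. In the peroxisome, OPR3 reduces OPDA, OPCL1 links the product to coenzyme A, and ACX1, an acyl-CoA oxidase, starts the shortening of its side chain by beta-oxidation. The active conjugate of JA binds the COI1-JAZ receptor, JAZ repressors are degraded, and MYC2 is released. Many JA synthesis genes are known targets of this pathway, a loop in which the hormone raises its own synthesis.

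MYC2 peaks were found at all 8 genes, against 12.5% of all protein-coding genes counted over the same window. Each gene also held a MYC2 summit inside its window, against 11.4% of all genes. The summits nearest the start of most genes lay close to a G-box, the hexamer CACGTG that MYC2 binds, or to a hexamer that differs from it by a single base. The sites are shown because they are the nearest such hexamers to these summits, from 2 to 36 bp away. Each is the hexamer, in capitals, with 12 bp on either side, read 5′ to 3′ along the strand of the gene, from RefSeq's copy of TAIR10 (TAIR10.1).
AOS (chr5:17099584-17099613, minus strand): aaagagtcaaagCACGTGgctaaatgaatc
AOC1 (chr3:9403629-9403658, plus strand): cttcacaagtcgCACGTTtttcatttttct
AOC2 (chr3:9406777-9406806, plus strand): tggtaatttacgCACGTGctacttcatcaa
AOC3 (chr3:9409223-9409252, plus strand): ttgacatatacgCACGTGttacttcatcat
AOC4 (chr1:4547441-4547470, plus strand): cccatatttacgCACATGgctcctcatcat
OPR3 (chr2:2362271-2362300, minus strand): aaaacaaatcagCACGTGaaagtaatggtc
OPCL1 (chr1:7106004-7106033, minus strand): aaacatattcttCACGTGccgctaacaacg
ACX1 (chr4:9429834-9429863, minus strand): ctcaaagatagaCACGTTtaaaagccgtgg

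The hexamer began 6 bp upstream of the annotated start of AOS, 138 bp upstream of AOC1 and 956 bp upstream of ACX1. In the other genes it lay downstream of the start, at 120 bp in AOC2, 75 bp in AOC3, 65 bp in AOC4, 87 bp in OPR3 and 100 bp in OPCL1, and the summits beside these 5 hexamers were in untranslated exons. The AOC3 site resembled that of AOC2 beyond the hexamer, which was less clear for AOC4. Without gaps, AOC3 matched AOC2 at 24 of 30 bases, and its next best placement between 500 bp upstream and 300 bp downstream of the AOC3 start matched 15. AOC4 matched AOC2 at 19 of 30 bases, only 1 more than its next best placement, and its hexamer differed from the G-box by G4A, counted from 1 at the first base of the hexamer. In AOC1 the best placement matched 16 of 30 bases, and another placement matched as many, so no counterpart of the site was found there.

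AOS, the enzyme that commits the oxidised fatty acid to JA, had the MYC2 peak with the highest fold enrichment of the 8 genes. Its gene-body peak had its summit 872 bp downstream of the start, in the coding exon, with a fold enrichment of 6.001, the 24th highest of 3464 peaks, and a −log10 q of 38.7. It was 1958 bp wide. A second AOS peak had its summit 1037 bp upstream, in intergenic sequence, with a fold of 4.44. The third, at the G-box shown above, had its summit 30 bp downstream of the start and a fold of only 2.13, but a −log10 q of 21.4.

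Among the AOC genes, AOC1 had a summit 141 bp upstream of its start, with a fold of 2.83 and a −log10 q of 35.1, and in its intron 656 bp downstream, with a fold of 3.46. AOC2 had a summit 91 bp downstream of its start, with a fold of 2.91, and another near its 3′ end, at 1226 bp, with a fold of 3.34. The second of these also falls into the window upstream of AOC3. AOC3 itself had a summit 96 bp downstream of its start, with a fold of 2.25, and AOC4 had a single summit 79 bp downstream, with a fold of 2.44. These starts thus all had a nearby summit, though its fold lay below the list median of 2.59 in AOC3 and AOC4.

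Of the peroxisomal steps, OPR3 had its leading summit 95 bp downstream of the start, with a fold of 2.73 and a −log10 q of 37.5. A second OPR3 summit, in an intron 1890 bp downstream, had a fold of 2.60 and a −log10 q of only 2.87. OPCL1 had 3 summits, at 89, 804 and 2597 bp downstream, with folds of 2.22, 3.01 and 2.89. ACX1 differed from the other genes in having no summit near its start. Its only summit lay 958 bp upstream, with a fold of 2.28 and a −log10 q of 6.69, in an untranslated exon of the neighbouring gene AT4G16765.

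**Figure D1:**
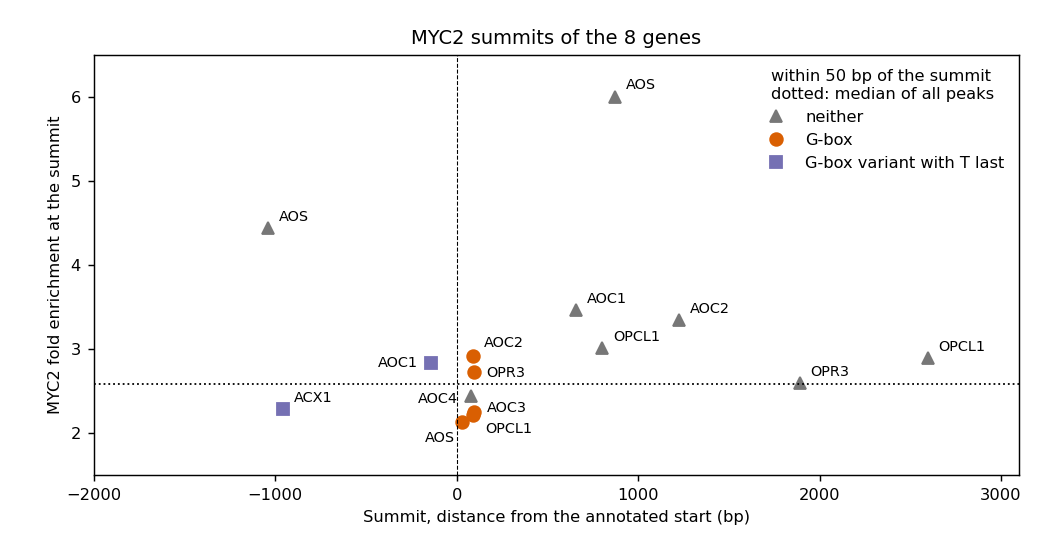
MYC2 summits of the 8 genes. The x axis is the distance of the summit from the annotated start in bp, and the y axis is the fold enrichment at the summit. Each symbol is 1 of 15 summits, coloured by the motif within 50 bp. The 5 summits with a G-box sit between 30 and 96 bp downstream of a start at folds of 2.13 to 2.91, and the AOS gene-body summit stands highest, at 6.001.

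A summit between 0 and 100 bp downstream of the start was found in 6 of the 8 genes, namely AOS, AOC2, AOC3, AOC4, OPR3 and OPCL1. This window was chosen after the positions were seen. Of all protein-coding genes, 0.867% had a summit there, and of the 3125 genes with any summit in their window, 7.62% did. CACGTG, which reads the same on either strand, stood within 50 bp of 5 of the 15 summits (33.3%) and of 947 of all 3464 summits (27.3%). With CACGTT, searched on both strands, the counts were 7 of 15 (46.7%) and 1554 of 3464 (44.9%), and with CACATG added, also on both strands, they were 9 of 15 (60.0%) and 2226 of 3464 (64.3%). The summits of these genes thus carried the motifs about as often as all summits did. Each of the 5 G-box summits lay within 100 bp downstream of a start, as did 1 of the other 10, that of AOC4. In the sequence from 250 bp before to 50 bp after the start, CACGTG was present in AOS and ACX1, against 7.68% of all protein-coding genes.

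The gene-body peaks of AOS, AOC1 and AOC2 were wide, at 1958, 1339 and 1032 bp, against a median of 321 bp over all peaks. Peaks wider than 1000 bp made up 3 of the 15 and 39 of all 3464. No CACGTG or CACGTT lay within 50 bp of these 3 summits. All 3 lay inside domains that gained H3K9ac after JA in both experiments, as did 69.2% of the 39 wide peaks and 10.4% of all 3464 summits. The part of the H3K9ac signal in these wide peaks was not tested.

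H3K9ac was higher after 2 h JA at all 8 genes, in both the large-scale list and the time course list, which hold domains at an epic2 FDR under 0.05. Among the domains over the gene bodies, the counting intervals of AOC4 alone reached 0. The share of all protein-coding genes with a gain in their window was 13.1% in the large-scale list, 21.1% in the time course list and 7.23% in both. In the opposite list, of domains with less H3K9ac after JA in the time course, 16.3% of genes and 0 of the 8 had a domain. Gains in both lists together with a MYC2 summit were found at 2.81% of genes and at all 8 of these. The paper names AOS, AOC1, AOC2, AOC3 and OPR3 among its MYC2 core genes, picked from this series by JA-induced expression, H3K9ac and MYC2 binding. For those genes, gains and MYC2 binding were thus known beforehand. Whole seedlings were used, so more cells with the mark and more mark per cell cannot be told apart.

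The tandem genes AOC1, AOC2 and AOC3 on chromosome 3 shared a gain that was among the highest of the 8 genes, although its large-scale interval overlapped that of OPR3. In the large-scale list a single domain, chr3:9402801-9410600, ran over all 3 genes and held 2366 counts after JA against 1469 in control. Scaled by library totals, this is a log2 ratio of 0.76, with a 95% interval of 0.67 to 0.86 that covers counting error only. In the time course list a domain over AOC1 and AOC2, chr3:9402801-9408000, held 2007 counts after JA against 1041 in control, a log2 ratio of 0.96 (0.85 to 1.07). AOC3 had a domain of its own there, chr3:9409201-9410400, with 536 counts against 421, and its log2 ratio was lower, at 0.36 (0.18 to 0.55). The time course thus separated AOC3 from its neighbours, while the large-scale list gives no value for each of the 3 genes.

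AOC4, the cyclase gene on chromosome 1, had the smallest gain of the 8. It held 842 counts after JA against 810 in control in the large-scale list and 1315 against 1241 in the time course list. The log2 ratios were 0.13 (-0.01 to 0.27) and 0.10 (-0.01 to 0.21), so the counting intervals reached just below 0 in both. The time course domain was 3600 bp wide, with 1213 bp in AOC4 and most of the rest over the upstream neighbour MAP1C, so its counts are not those of AOC4 alone. Only 3.54% of all large-scale gains and 1.74% of all time course gains had a lower ratio. A second large-scale domain in its window lay over MAP1C, which encodes a methionine aminopeptidase, with 302 counts against 202 and a log2 ratio of 0.66 (0.40 to 0.92).

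AOS held 2550 counts after JA against 1854 in control in the large-scale list, and 2457 against 1754 in the time course list. The log2 ratios were 0.54 (0.45 to 0.62) and 0.50 (0.41 to 0.59), which overlap. OPR3, the OPDA reductase, held 1199 counts after JA against 781 in control in the large-scale list, a log2 ratio of 0.70 (0.56 to 0.83) that overlaps the interval of AOS. In the time course list it held 983 counts after JA against 686 in control, a log2 ratio of 0.53 (0.39 to 0.68). AOS and OPR3 therefore both lay above the medians of all gains, which were 0.29 in the large-scale list and 0.24 in the time course list.

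OPCL1, the CoA ligase, held 1801 counts after JA against 1523 in control in the large-scale list and 1610 against 1318 in the time course list, with log2 ratios of 0.32 (0.22 to 0.42) and 0.30 (0.20 to 0.41). ACX1, the acyl-CoA oxidase, held 600 against 542 and 683 against 584, with log2 ratios of 0.22 (0.05 to 0.39) and 0.24 (0.08 to 0.40). The gains of OPCL1 and ACX1 were thus close to the median of their lists.

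**Figure D2:**
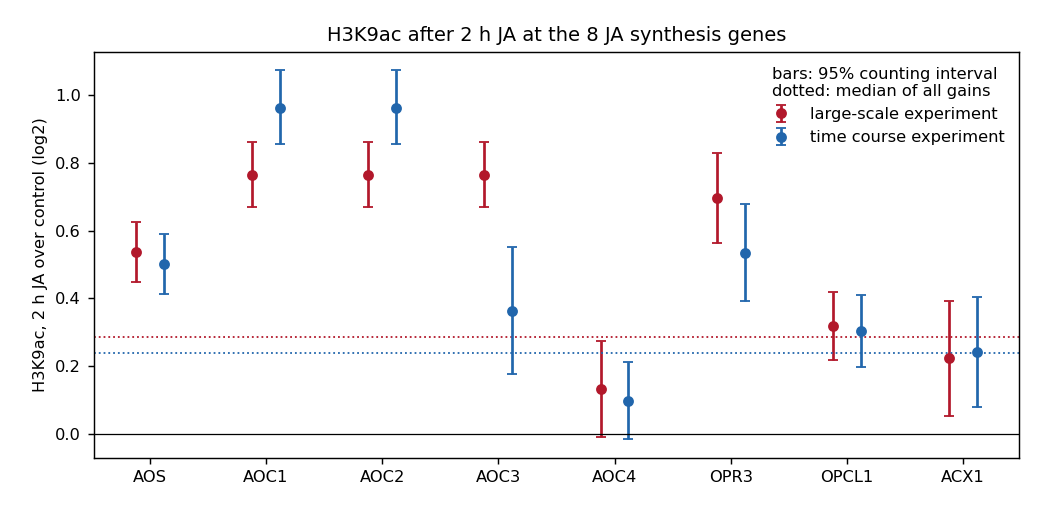
H3K9ac after 2 h JA at the 8 genes. The y axis is the log2 ratio of 2 h JA over control counts, scaled by library totals, for the large-scale (red) and the time course (blue) experiment. Bars are 95% counting intervals and dotted lines are the medians of all gains, 0.29 and 0.24. AOC1 to AOC3 share 1 red value and AOC1 and AOC2 share 1 blue value. The bars of AOC4 alone reach 0.

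At AOS, OPR3, OPCL1 and AOC1 the gains reached further upstream than the untreated H3K9ac domains. The paper already describes JA-induced H3K9ac in regulatory regions of MYC2 core genes, termed SIENA regions, with AOS as an example. It reports lower H3K9ac in these regions after JA in myc2 myc3 myc4 mutants. At AOS the untreated domains of all 5 libraries ended between 195 bp inside the gene and 5 bp upstream of its start, as seen from the 5′ side. The JA gain reached 3405 bp upstream in the large-scale list and 1805 bp in the time course list, and the larger domain also covered AT5G42655 and the end of AT5G42660. At OPR3 the gains reached 1225 and 425 bp upstream, where the untreated domains ended between 175 bp inside the gene and 25 bp upstream. At OPCL1 they reached 1479 and 679 bp upstream, against 479 bp in each untreated library, over the divergent long non-coding RNA AT1G20515. At AOC1 they reached 978 bp upstream in both lists, where untreated domains began 222 bp inside the gene. At ACX1 the gains over the gene began 95 bp inside it, where 4 of the 5 untreated domains reached 105 bp upstream. A separate ACX1 gain, in the large-scale list alone, lay upstream of the gene without touching it (chr4:9429801-9433000), reached 4105 bp upstream and held the MYC2 summit of ACX1. It had 656 counts after JA against 622 in control, a log2 ratio of 0.15 with an interval that reached just below 0 (-0.01 to 0.31). AOC4 was mixed, since its time course gain reached 2387 bp upstream and its large-scale gain 587 bp, the same as the untreated domain of regular library 2, while the other 4 untreated domains began 13 bp inside the gene. The gain lists were called against control H3K9ac and the untreated lists against IgG, so their borders come from different contrasts.

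**Figure D3:**
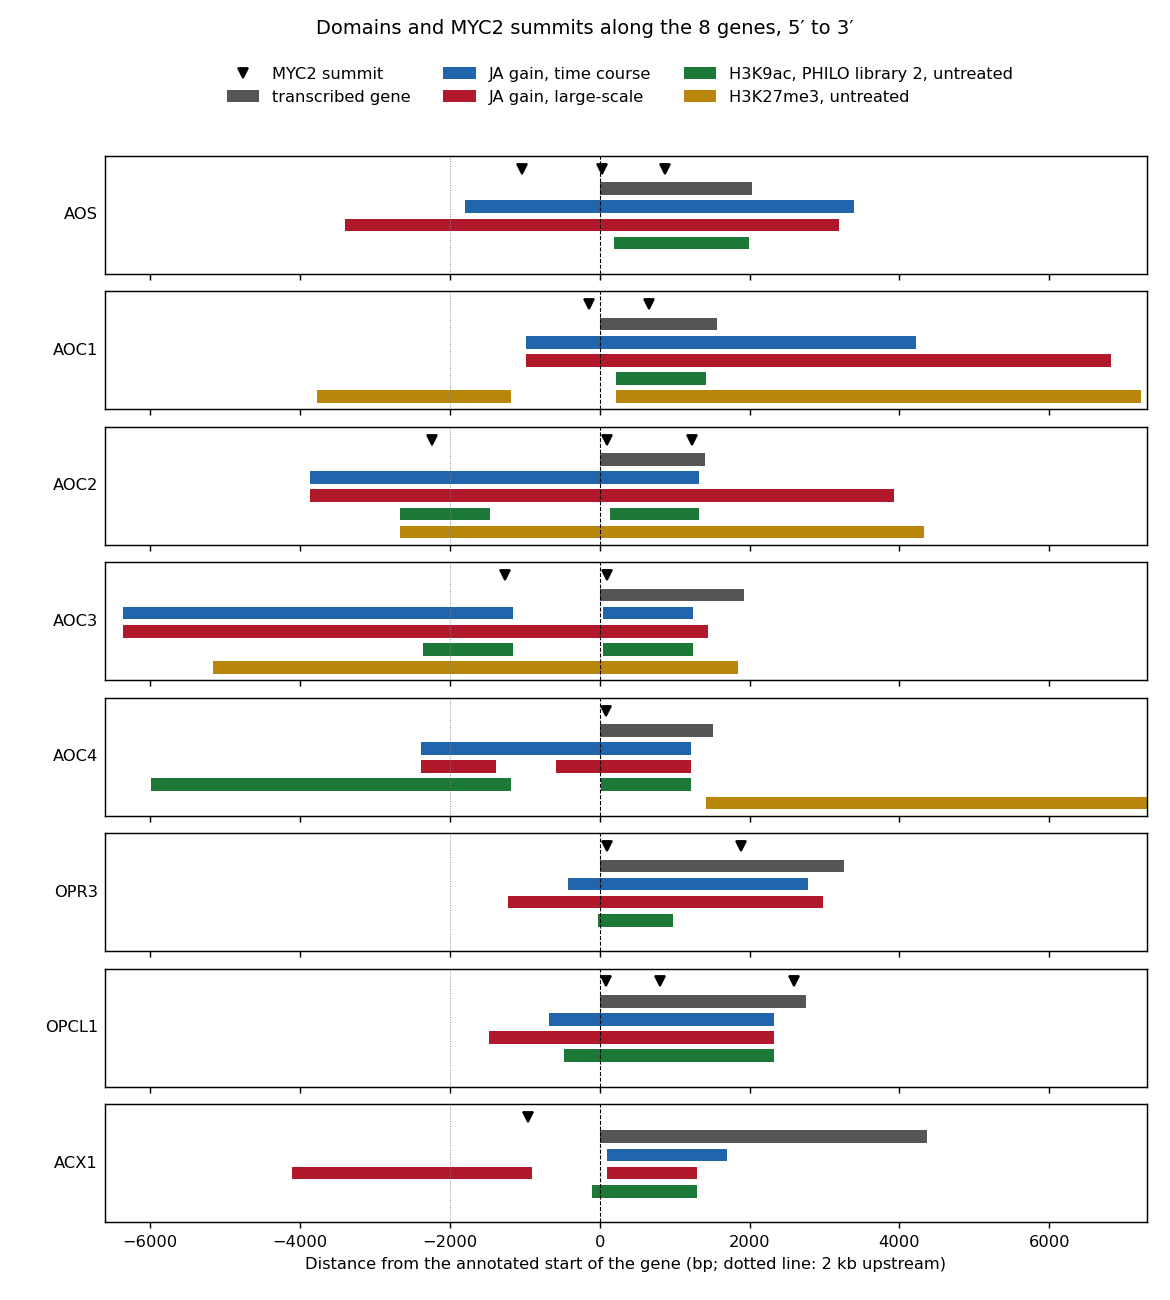
Maps of the 8 genes, drawn 5′ to 3′. The x axis is the distance from the annotated start in bp, bars are the gene and the domains of each list, and triangles are MYC2 summits. At AOS the large-scale gain begins 3405 bp upstream, while the untreated H3K9ac domain of PHILO library 2 begins 195 bp inside the gene. AOC1 to AOC3 share gains and an H3K27me3 domain. The H3K27me3 domain downstream of AOC4 runs past the right edge.

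In untreated seedlings H3K9ac was present at all 8 genes in each of the 5 libraries, as it was at 70.4% of all protein-coding genes. As a check of the tissue label, H3K9ac domains in all 5 libraries were found at 4 of 4 photosynthesis genes, 0 of 3 flower organ genes and 1 of 4 seed storage genes. The 5 lists held 8986137 to 13807286 ChIP counts in domains, and all used the same IgG control. This control was taken to be the 1 untreated PHILO IgG library, so the ratios of both methods share it. AOS had log2 ratios over IgG of 3.11, 3.43 and 3.41 in the PHILO libraries, against 1.79 and 2.55 in the regular libraries. AOC4 had 2.80, 3.16 and 3.03 with PHILO against 2.29 and 1.96 with regular ChIP-seq, and OPR3 had 2.73, 3.03 and 3.01 against 2.25 and 2.30. These 3 genes were the highest of the 8 in every library, although in regular library 1 the margin was only that of 1.79 in AOS over 1.77 in ACX1.

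The other 5 genes lay lower and close together. ACX1 had log2 ratios of 2.06, 2.22 and 2.53 in the PHILO libraries, against 1.77 and 1.67 in the regular libraries. OPCL1 had 2.17, 2.17 and 2.29 against 1.55 and 1.56, and AOC2 had 1.98, 1.94 and 2.35 against 1.58 and 1.59. AOC3 had 1.98, 1.93 and 2.02 against 1.29 and 1.47, and AOC1 had 2.01, 1.79 and 1.67 against 1.38 and 1.37. The PHILO means fell in the order AOS (3.32 ± 0.18, SD, n = 3), AOC4 (3.00 ± 0.18), OPR3 (2.92 ± 0.17), ACX1 (2.27 ± 0.24), OPCL1 (2.21 ± 0.07), AOC2 (2.09 ± 0.23), AOC3 (1.98 ± 0.05) and AOC1 (1.82 ± 0.17). Every neighbouring pair in this order overlapped in its PHILO values, except OPR3 over ACX1. Set among all domains of its list, AOS ranked 27th of 14969, 22nd of 14678 and 33rd of 14913 in the PHILO libraries, whereas AOC1 exceeded only 26.8% to 59.2% of domains.

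**Figure D4:**
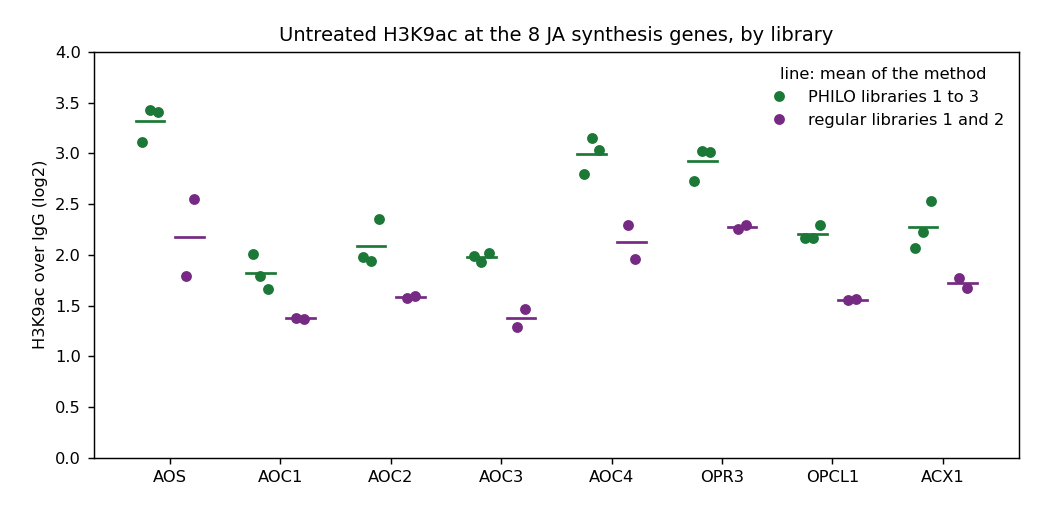
Untreated H3K9ac at the 8 genes by library. The y axis is the log2 ratio of H3K9ac over IgG counts, scaled by library totals. Points are single libraries, PHILO (green, 3) to the left of regular (purple, 2), and lines are means. For each gene all PHILO points lie above both regular points, and AOS with PHILO is highest, at 3.11 to 3.43.

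All PHILO values exceeded both regular values at each of the 8 genes, which was also so in 92.1% of the 12972 regions with a domain in all 5 libraries. The difference between the means of the methods had a median of 0.62 over the 8 genes and 0.53 over all regions. It was largest at AOS, 1.15, which ranked 72nd of all regions, and 0.87 at AOC4. Both genes had 1 regular library with a wider domain than any other library, AOS in library 1 (3400 bp) and AOC4 in library 2 (1800 bp). In limma's test of these ratios all 8 genes passed an adjusted p of 0.05 (Benjamini-Hochberg, 0.00173 to 0.0115), beside 88.1% of all regions. A higher ratio over IgG with PHILO was therefore not particular to these genes.

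Once the overall shift between the methods was scaled away, no difference passed the test at any of the 8 genes. In edgeR's quasi-likelihood test of ChIP counts per bp of domain, with TMM scaling and Benjamini-Hochberg adjustment over 12972 regions, 0 of the 8 genes and 2 regions in all (0.0154%), both higher with PHILO, passed. At an unadjusted p under 0.05 edgeR listed 1 of the 8 and DESeq2 listed 2, and after adjustment DESeq2 listed 0, beside 1.67% of all regions, of which 118 of 217 were higher with PHILO. Without the offset for domain width edgeR listed OPR3 alone (log2 difference 0.31, adjusted p 0.0415), beside 5.03% of all regions. AOS had 889, 1020 and 1003 normalised counts per kb in the PHILO libraries, against 504 and 801 in the regular libraries. Its log2 difference was 0.58 ± 0.19 (SE), with an adjusted p of 0.219 by edgeR. The lower regular value was that of library 1, in which the AOS domain was 3400 bp wide, against 1800 to 2000 bp in the other 4 libraries. Without that library the difference was 0.28, and without regular library 2 it was 0.95. The log2 differences of the other 7 genes were between -0.11 (AOC1) and 0.36 (AOC4), with adjusted p from 0.302 to 0.986 by edgeR. The AOC4 difference was 0.62 without regular library 1 and 0.14 without regular library 2. The regular libraries agreed more closely than sampling noise between independent libraries, which gives about 1 per degree of freedom. Over 4833 domains with the same ends, a chi-square test of their counts gave 0.862 per degree of freedom, against 1.58 to 2.204 for pairs of PHILO libraries. Whether they are separate replicates was not tested, and the limma fit counted them as 2 libraries. With both regular libraries counted as 1 sample, edgeR listed 0 of the 8 genes as well, and the AOS difference was 0.68 with an adjusted p of 0.476.

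The other marks divided the 8 genes. H3K4me3, a mark of active starts, was present at all 8, as at 72.7% of all genes, with log2 ratios over IgG of 3.40 at AOS, 3.11 at AOC4, 3.05 at ACX1, 2.84 at OPCL1, 2.81 at OPR3, 2.51 at AOC2, 1.70 at AOC1 and 1.50 at AOC3. The values of AOC1 and AOC3 lay well under the list median of 2.66, above only 10.7% and 7.6% of its domains. H3K36me3, found along transcribed gene bodies, was present at AOS, AOC4, OPCL1 and ACX1, that is 4 of 8 genes, against 66.8% of all genes. ACX1 had the highest of these log2 ratios, 2.19, and AOS the lowest, 1.01, above only 6.16% of H3K36me3 domains.

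H3K27me3, the mark of Polycomb repression, was present in the windows of all 4 AOC genes and of none of the other 4 genes, against 42.3% of all genes. H3K27me3 and H3K4me3 together were found in the windows of 23.5% of all genes. A single domain, chr3:9404001-9411000, covered AOC1, AOC2 and AOC3, with 3088 counts against 514 in IgG and a log2 ratio of 1.74, close to the list median of 1.78. A further domain with a log2 ratio of 2.24 lay upstream of AOC1. At AOC4 the overlap was of only 94 bp, at the 3′ end of the gene, with a domain of 11800 bp that lies mostly downstream, with a log2 ratio of 2.74. AOC1 to AOC3 thus had H3K27me3, H3K9ac and H3K4me3 over the same gene bodies in untreated seedlings. Whether these marks sit on the same molecules or in different cells cannot be told apart in whole seedlings. The 3 genes had the lowest PHILO means of H3K9ac, but AOC2 lay above OPCL1 in PHILO library 3 and in both regular libraries. The domain over AOC1 and AOC2 had the highest log2 ratio after JA among the 8 genes in either list, with the overlap with OPR3 given above. AOC3 had only 0.36 in its own time course domain. OPR3 had neither H3K36me3 nor H3K27me3, which was so for 9.41% of all genes.

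The tandem AOC genes share some sequence, and a read that fits more than 1 of them cannot be assigned to a single gene by its sequence. Windows of 50 bp that recur elsewhere in the genome made up 2.65% of AOC1, 0.0739% of AOC2 and 1.33% of AOC3, and none of the other 5 genes. At 36 bp the shares were 5.25% of AOC1, 1.75% of AOC2, 2.80% of AOC3 and 0.508% of ACX1, and at 75 bp no window recurred.

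Of 26 other genes of JA synthesis, of its inputs and of its branches, 7 had a gain in both JA lists, against all 8 genes from AOS to ACX1. HPL1, a hydroperoxide lyase gene of a branch pathway, had log2 ratios of 1.04 (0.79 to 1.30) in the large-scale and 1.86 (1.67 to 2.05) in the time course list. These values lay above those of any of the 8, though in the large-scale list the counting interval overlapped that of the AOC domain. LOX2, a lipoxygenase, had 0.88 and 1.31. LOX3 had 0.48 and 0.34, LOX4 had 0.33 and 0.08, and the thiolase KAT5 had 0.39 and 0.52. The other thiolases among the 26 genes, KAT1 and KAT2, had no gain in either list. The intervals of LOX4 in the time course (-0.02 to 0.19) and of DAD1 in the large-scale list (-0.05 to 0.68) included 0. The lipase DAD1 had 0.31 and 0.47 and the desaturase FAD8 had 0.20 and 0.66. A MYC2 summit lay in the windows of 5 of these 7, all but DAD1 and FAD8.

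Genes related to OPR3 and ACX1 stood in the opposite list. Domains with less H3K9ac after 2 h JA in the time course lay in the windows of 7 of the 26 genes. The counts to set beside this are 0 of the 8 and 16.3% of all protein-coding genes. The log2 ratios of control over JA in these domains were 0.60 at ACX4, 0.49 at ACX2 and 0.15 at ACX5, all acyl-CoA oxidases. They were 0.38 at MFP2 and 0.22 at AIM1, multifunctional proteins of beta-oxidation. OPR1 and OPR2, the OPDA reductases that are close relatives of OPR3, shared a domain with 0.20. The counting interval of ACX5 (-0.02 to 0.31) included 0. The median of all losses was 0.25, below the values of ACX4, ACX2 and MFP2 and above those of AIM1, OPR1, OPR2 and ACX5. ACX1 and OPR3 stood in the list of gains, while 3 of the 4 oxidases and both reductases among the 26 genes stood in the list of losses. This does not separate genes of JA synthesis from genes outside it, since the 26 also include genes of JA synthesis. Both time course lists come from the same JA and control libraries.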

How the data were processed

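Reads had been aligned by the authors to TAIR10 with Bowtie2 2.4.1 and domains called with epic2 (version 0.0.52, listed in the labels as SICER). The authors called MYC2 peaks with MACS2 2.2.7.1. Per the labels, deepTools 3.5.2 was also used. The deposited domain lists give whole-number ChIP and control counts, a log2 fold that equals the log2 count ratio plus a constant per file, and an epic2 p-value and FDR under 0.05. That constant, the scaling by library totals, was taken from the deposited log2 fold, and the authors' p-values were used only for stricter thresholds. The deposited MYC2 list gives a fold, a score and −log10 p-values and q-values per peak. Duplicate handling is not given in the sources used here.

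Coordinates are printed from 1, and domains are multiples of 200 bp. Genes came from RefSeq's TAIR10.1, whose nuclear chromosomes no domain overran. Where several domains met a window, the one with the most bp in it gave the value. Intervals of count ratios are exact conditional binomial intervals at 95%, for counting error only.

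Domains of the 5 untreated H3K9ac lists were merged into 14372 regions. The 12972 with a domain and at least 50 counts in every library were tested with edgeR 4.0.16 (quasi-likelihood, offset of domain width and TMM) in R 4.3.3, with DESeq2 1.42.0 and limma 3.58.1 as alternatives. On simulated counts for these 12972 regions, 200 of them changed 1.5-fold at a fixed dispersion, edgeR recovered 98% with 8 false calls. The simulation gave every region the same dispersion and took the called widths as exact, so this share does not measure power in these libraries. Python 3.11.15, numpy 2.4.6, pandas 2.3.3, scipy 1.17.1 and matplotlib 3.10.9 were used.

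The 8 genes, all of which are named, and the gene lists were chosen with earlier results of these data known. Of the 26 other pathway genes, those with a gain in both JA lists or a loss were named. The list named as merged PHILO H3K9ac was not used for values, since over 865 shared domains its counts followed those of the regular libraries (Spearman 0.991) more closely than those of the PHILO libraries (0.926). Mutants, other time points, Pol II and hormone withdrawal were not analysed here. The authors describe the libraries as biological replicates, and the labels do not say which plants or plates each came from, so p-values measure the spread between these libraries.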

Additional observations from a re-analysis of the deposited data

How the results depend on the processing

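The counts of genes with JA gains stayed at 8 with the gene body alone or with 1 kb upstream, and at an FDR under 0.001 they were 7, 7 and 6 in the large-scale list, the time course list and both. At a log2 ratio of at least 0.5, 5 of the 8 genes had a gain in the time course list and 5 in both lists. These counts take any domain in a window: AOC3 passed the log2 limit in the time course only through the domain over AOC1 and AOC2, and AOC4 passed both limits in the large-scale list only through the one over MAP1C. The number of regions called between PHILO and regular H3K9ac was 2 by edgeR and 653 without the width offset (308 higher with PHILO). Scaled by the counts in the tested regions in place of TMM, it was 4 (3 of them higher with PHILO). It was 217 with DESeq2, 276 over domains with the same ends and 11430 by limma on ratios over IgG. The limma fit centred on the median, added after seeing the data, gave 21. The setting with both regular libraries counted as 1 was also added then. Leaving out 1 library at a time gave 0 to 0 regions. The replicate numbers 1 and 2 are shared by the methods. The deviations of same-numbered libraries hardly correlated (r = 0.0059 for number 1 and 0.0149 for number 2). The regular libraries differed by no more than sampling noise, so this check could not show whether the numbers pair libraries across the methods. With the replicate block 4 regions were called. Of the 8 genes, 1 was called without the width offset (OPR3, 0.31, adjusted p = 0.0415 by edgeR), 8 by limma on ratios over IgG, and 0 under the other settings run, of which the one over domains with the same ends tested AOC3 alone.

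Signs turned only where the edgeR difference was small. AOC1 was 0.45 by limma over IgG, a fit in which the median of all regions was 0.53, and centred on that median AOC1 and AOC2 were -0.09 and -0.04, with the sign of the edgeR fit. AOC2 was 0.0124 when scaled by the counts in the tested regions and 0.0137 without the width offset. It was 0.50 by limma over IgG and -0.14 to 0.0543 with 1 library left out. AOC3 was -0.0007 to 0.13 with 1 library left out. ACX1 was -0.0655 without the width offset, -0.0559 with the replicate block and -0.0032 with both regular libraries counted as 1, and -0.0533 to 0.0552 with 1 library left out. For AOC4, the large-scale domain with the highest ratio, 0.66, lies over MAP1C. For AOC3 in the time course, the domain shared with AOC2 gives 0.96, and all domains summed give 0.81. Pooled lists leave no replicate error for the JA and MYC2 results, and the smaller gains, of AOC4 and ACX1, rest on the fewest counts above control.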
